A study of Mus musculus with 11 samples.

Results

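Enzymes of xenobiotic and detoxification metabolism were followed as 6 gene families in lung epithelial cells of E17.5 mouse embryos: cytochrome P450 (CYP) families 1 to 4, flavin monooxygenases (Fmo), UDP-glucuronosyltransferases (Ugt), soluble glutathione transferases (GST), microsomal glutathione transferases (Mgst) and paraoxonases (Pon). Members were chosen by gene symbol alone, with Cyp2f2 left out, which is a marker of airway secretory cells. Of 24421 genes in the table, 136 carried such a symbol. Of these, 56 had no count in any library, 44 had counts but a mean under 10 over the 11 libraries, and the 36 others are reported below, all of which were among the 13916 genes that passed the filter on low counts. The minimum is a mean over both genotypes, so a member can pass it through the group in which it is high. Cyp3a13 (mean 13.2 counts) and Cyp2j9 (13.1) lay just inside it, and Cyp4f41-ps (9.73), Gstm5 (9.45) and Cyp2r1 (9.36) just outside.

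The study measured poly(A) RNA in 6 Control libraries and in 5 libraries labelled PRDM3/16KO, called knockout libraries here, and asked how gene expression differs when lung epithelium lacks the transcriptional regulators PRDM3 and PRDM16. Knockout mice came from a floxed Prdm16 strain (flox/flox, Jackson), a floxed Prdm3 strain (flox/flox, Kurokawa laboratory) and ShhCre, a Cre recombinase at the Shh locus, which is active in lung epithelium. Fathers that carried Cre were Prdm3fl/fl Prdm16fl/wt ShhCre+, and mothers were Prdm3fl/fl Prdm16fl/fl. The design text calls the comparison group wild type, the sample labels call it Control, and neither says which floxed or Cre alleles its embryos carried. Cells of both groups came from E17.5 lungs that were dissociated with enzymes, treated to lyse red cells, and held on microbeads by the epithelial surface protein EpCAM. Nothing in the labels ties a library to its own animal, so p-values measure the spread between libraries, which may be technical in part.

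Libraries held 6065906 to 7869787 counts. Over whole genes, the targeted Prdm16 had 202 ± 21.9 CPM (counts adjusted for sequencing depth with the TMM factors of edgeR, mean ± SD over 6 libraries) in Control and 166 ± 12.2 CPM in the 5 knockout libraries. Mecom, the present symbol of Prdm3, had 219 ± 9.99 CPM in Control and 340 ± 16.0 CPM in knockout libraries, so its total was higher and not lower under the knockout label. Such totals include exons outside the floxed ones and do not check the deletion. Epcam was at 252 ± 25.3 CPM in Control and 261 ± 10.8 CPM in knockout libraries. Summed markers of alveolar type 2 cells ran from 7423 to 13171 CPM in Control and from 2558 to 3872 CPM in knockout libraries, with 12 of 12 lower. Neuroendocrine markers ran from 37.3 to 67.1 CPM in Control and from 596 to 737 CPM in knockout libraries, with 9 of 9 tested higher. Mesothelial markers (1139 to 1620 CPM against 1652 to 1939 CPM, 6 of 8 higher) also differed. Mesenchymal sums overlapped, at 558 to 954 CPM in Control and 846 to 1524 CPM in knockout libraries, with 6 of 12 tested higher. Leukocyte sums overlapped, at 244 to 1212 CPM and 440 to 765 CPM (3 of 6 tested higher), as did endothelial ones, at 62.5 to 105 CPM and 50.0 to 72.1 CPM (4 of 7 higher, 1 lower). Airway secretory markers overlapped too, at 1324 to 2942 CPM in Control and 1399 to 2139 CPM in knockout libraries, with 2 of 12 tested higher and 4 lower. So did alveolar type 1 sums, at 7416 to 11870 CPM in Control and 10734 to 12987 CPM in knockout libraries (4 of 12 higher, 2 lower). Multiciliated sums ran from 2463 to 5112 CPM and from 2726 to 3438 CPM, with 0 of 11 tested higher and 1 lower. Among all genes tested, 42.9% were called, 21.1% higher and 21.8% lower, by the edgeR test given below. In such bulk samples, fewer cells of a type and less RNA per cell cannot be told apart, and the part of these shifts in the results below was not tested.

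Detoxification enzymes act in steps. P450s and flavin monooxygenases add or expose an oxygen on a foreign or lipid molecule, with electrons passed on from NADPH. Transferases then join the product to a soluble group such as glucuronic acid or glutathione, and transporters move the conjugate out of the cell. The airway epithelium is a main site of this chemistry outside the liver, since it meets inhaled toxicants, and many of the enzymes also handle fatty acids, eicosanoids and steroids. The aryl hydrocarbon receptor (AHR) and NRF2 are transcription factors known for switching on many of these genes.

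Across the 36 members, 12 rose in the knockout libraries, 12 fell and 12 were not called by edgeR's quasi-likelihood test at an adjusted p of 0.05. These 24 called members are 66.7% of the 36, where 42.9% of all genes tested were called. By direction, the background was 21.1% of all genes called higher and 21.8% called lower. Calls of at least 2-fold were made for 13 members, 36.1%, against 11.4% of all genes. CPM ranges of the groups did not overlap for 18 members, 50.0%, against 28.5% of all genes. The members' median log2 fold change (knockout over Control) was 0.032, beside 0.0023 for all genes, so no shared direction showed in the median, while their median size of change was 0.73 in log2, against 0.24 for all genes. The members with the largest called decreases were Pon1, Ugt1a6a, Gstt1, Cyp1b1 and Cyp3a13, and those with the largest called increases were Gstm6, Cyp2d22, Fmo2, Gstm7 and Cyp4f39. Members had to pass the minimum mean over both groups as well as the filter used for all genes. Some passed it mainly through 1 group, such as Pon1 (213 counts in Control, 5 in knockout libraries) and Gstm6 (29 and 139). The shares of members and of all genes are therefore descriptions of sets filtered in different ways.

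**Figure D1:**
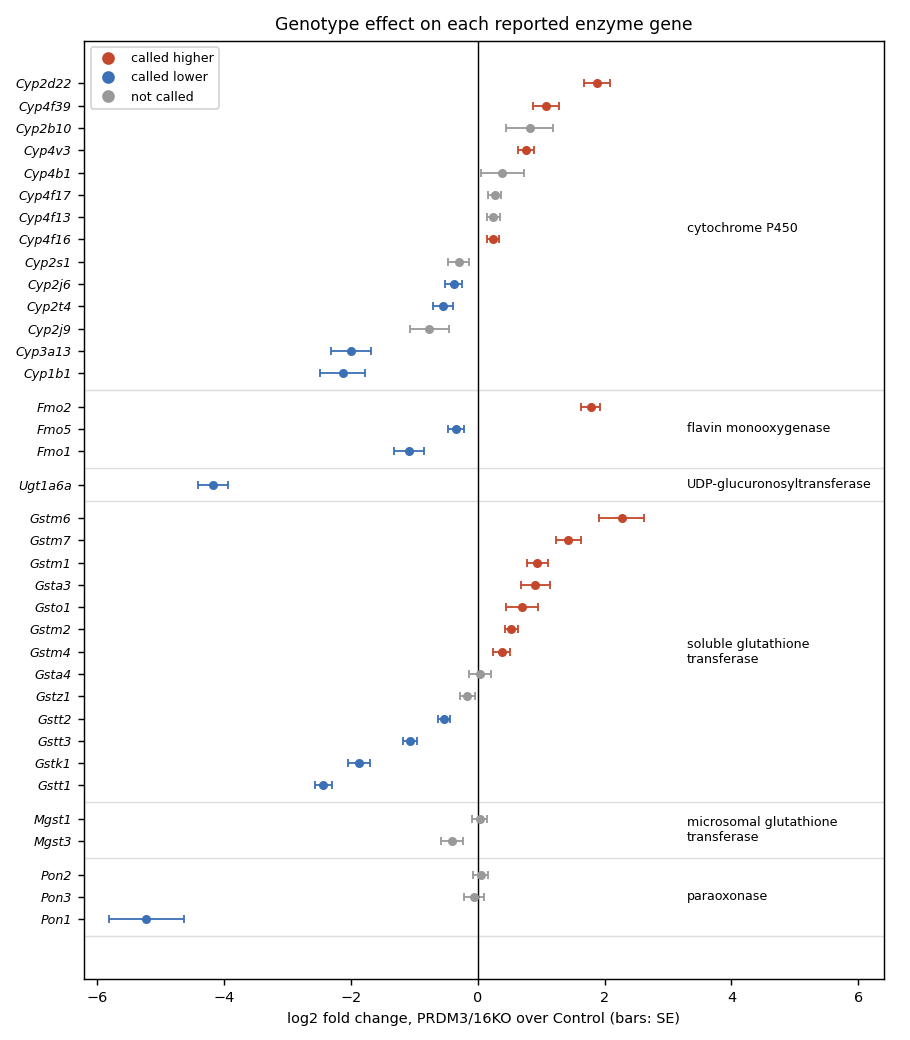
Log2 fold change of each of the 36 reported enzyme genes, knockout over Control, on the x axis, by family on the y axis; points are edgeR estimates and bars are standard errors. Red points were called higher, blue points lower and grey points were not called, and values run from -5.22 for Pon1 to 2.27 for Gstm6.

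Cytochrome P450s were the largest family, with 84 symbols, of which 45 had no count, 25 lay under the minimum and 14 are reported. Of these 14, 4 rose, 4 fell and 6 were not called, so 57.1% were called, against 42.9% of all genes. The single reported member of family 1 and of family 3 fell, family 2 had 1 higher, 2 lower and 3 not called of 6, and family 4 had 3 higher and 3 not called of 6. Summed over the reported P450s the groups overlapped, at 383 ± 93.3 CPM in Control and 368 ± 29.0 CPM in knockout libraries. Most of that sum was Cyp2s1.

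Cyp2s1 encodes a P450 of epithelia exposed to the outside and is known as an AHR target. It was the most abundant reported P450: Control libraries, numbered 1 to 6, held 240, 257, 232, 425, 255 and 199 CPM in that order, and knockout libraries, numbered 1 to 5, held 246, 189, 231, 206 and 215 CPM. The groups overlapped, and Control library 4 stood above every other library. Its log2 fold change was -0.30 (SE 0.16, edgeR adjusted p = 0.15). Per kilobase of exon it was the highest reported P450, at 54.2 CPM per kb in Control and 44.0 CPM per kb in knockout libraries. Cyp2f2, which was left out, lay above it at 84.3 and 90.6 CPM per kb.

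Cyp1b1 oxidises polycyclic aromatic hydrocarbons and estradiol and is a textbook target of AHR. Its gene spans 79701537 to 79715061 of chromosome 17 on the minus strand (mm10). Its level was 3.37, 5.81, 6.72, 7.11, 5.23 and 5.19 CPM in Control libraries and 2.52, 0.92, 0.768, 0.257 and 1.85 CPM in knockout libraries. Every knockout library was under every Control library, and knockout libraries 1 and 5 were the nearest to Control. Cyp1b1 fell by 2.13 in log2 (SE 0.354, edgeR adjusted p = 0.000175), from 5.57 ± 1.33 to 1.26 ± 0.908 CPM. Its relative Cyp1a1, the most inducible AHR target, was at 0 counts in all Control libraries and 7 counts in the knockout libraries together.

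The promoter window of Cyp1b1 is shown because it held the core of the AHR response element. Windows here are RefSeq sequences of 300 bases, 250 before to 50 after an annotated start, on GRCm38.p6 (mm10), printed 5′ to 3′ on the gene's strand. Capitals mark a match, here CACGC, which is GCGTG read on the opposite strand, at bases -76 to -72 from the start.
Cyp1b1 (chr17:79715012-79715311, minus strand): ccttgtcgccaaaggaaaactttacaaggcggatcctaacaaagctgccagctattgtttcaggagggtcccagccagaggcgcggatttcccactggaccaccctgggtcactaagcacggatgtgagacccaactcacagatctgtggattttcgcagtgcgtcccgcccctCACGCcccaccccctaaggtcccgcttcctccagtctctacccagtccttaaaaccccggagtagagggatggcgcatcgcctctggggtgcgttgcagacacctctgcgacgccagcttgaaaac
GCGTG was searched on both strands in the 31 reported members that have a window (Cyp2d22, Cyp4f17, Fmo1, Gsta4 and Gstt2 have none). It was present for 9 of 31 members, 29.0%, counting a gene once if any of its windows held it, against 35.2% of 27025 genes counted the same way. Of the members called lower with a window, Cyp1b1 alone held it (1 of 10), beside 4 of 11 called higher and 4 of 10 not called. A match is a description of letters in this window only.

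Cyp3a13, a mouse member of the CYP3A group that handles many drugs and steroids, is on chromosome 5 from 137892932 to 137921619. It was at 3.02, 2.9, 4.8, 1.91, 2.48 and 2.47 CPM in Control libraries and 0.53, 0.526, 1.28, 0.643 and 0.617 CPM in knockout libraries. The groups did not overlap, and knockout library 3 stood above the other knockout libraries. Cyp3a13 fell by 1.99 in log2 (SE 0.316, edgeR adjusted p = 9.75e-05), from 117 counts in all Control libraries to 28 in all knockout libraries.

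Cyp2d22, held to be the mouse counterpart of the human drug-metabolising CYP2D6, showed the largest increase of the 14 reported P450s. It was at 4.44, 2.07, 3.68, 2.43, 1.79 and 2.96 CPM in Control libraries and 7.96, 11.6, 13.6, 9.52 and 10.1 CPM in knockout libraries. All knockout libraries were above all Control libraries. The log2 fold change was 1.88 (SE 0.211, edgeR adjusted p = 3.57e-06), with a mean of 2.9 ± 1.01 CPM in Control and 10.5 ± 2.13 CPM in knockout libraries. The gene is on chromosome 15 from 82370527 to 82380260.

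CYP4 enzymes hydroxylate the far end of fatty acids and eicosanoids. Of the 6 reported, 3 were called, or 50.0%, near the 42.9% of all genes. All 3 were higher and none was lower, where 21.1% of all genes were called higher and 21.8% lower. Cyp4f39, whose human counterpart acts on very long fatty acids of the skin barrier, was at 1.95, 2.07, 1.12, 1.91, 1.52 and 1.23 CPM in Control libraries and 3.32, 4.2, 3.33, 3.6 and 2.84 CPM in knockout libraries, without overlap. It rose by 1.08 in log2 (SE 0.207, edgeR adjusted p = 0.00056). Cyp4v3, whose human counterpart is a fatty acid hydroxylase mutated in a retinal dystrophy, was more abundant and rose from 38.8 ± 7.18 to 65.3 ± 10.5 CPM, also without overlap (log2 fold change 0.76, edgeR adjusted p = 0.000221). Cyp4f16 rose by 0.24 (edgeR adjusted p = 0.0445), a call that was lost in 17 of 25 alternative analyses, and 17.4% of its 50-base stretches also occur in other genes. Cyp4f17 (0.27, edgeR adjusted p = 0.0507) and Cyp4f13 (0.25, edgeR adjusted p = 0.084) had like values and were not called.

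Leaving out 1 library changed the calls of Cyp4b1 and Cyp2b10. Cyp4b1, which activates the lung toxicant ipomeanol, was at 6.75, 5.39, 6.4, 16.3, 4.55 and 3.21 CPM in Control libraries and 8.22, 6.7, 10.9, 11.6 and 7.9 CPM in knockout libraries. Cyp2b10, the classical target of the nuclear receptor CAR, was at 1.24, 1.66, 1.76, 7.11, 2.89 and 1.85 CPM in Control libraries and 4.24, 4.2, 7.17, 3.6 and 4.56 CPM in knockout libraries. Control library 4 was above all knockout libraries for Cyp4b1 and above all but one for Cyp2b10, while the other 5 Control libraries reached no higher than 6.75 CPM and 2.89 CPM. Neither was called by edgeR over all libraries: Cyp4b1 was at 0.39 in log2 (edgeR adjusted p = 0.385) and Cyp2b10 at 0.82 (edgeR adjusted p = 0.0944). Without Control library 4, Cyp4b1 was higher by 0.80 (edgeR adjusted p = 0.00531) and Cyp2b10 by 1.31 (edgeR adjusted p = 0.000609). Cyp2b10 was also called with all libraries by limma-voom (1.01, limma adjusted p = 0.0199), though not by DESeq2 (0.80, DESeq2 adjusted p = 0.0865). That library also had the highest summed airway secretory markers (2942 CPM) and multiciliated markers (5112 CPM) and the lowest proliferation sum (198 CPM). Its alveolar type 2 (13171 CPM) and leukocyte (1212 CPM) sums were the highest as well.

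Smaller decreases were seen in family 2. Cyp2j6, an arachidonic acid epoxygenase, fell by 0.38 in log2 (edgeR adjusted p = 0.0323), a call lost in 11 of 25 alternatives, and Cyp2t4 by 0.55 (edgeR adjusted p = 0.0126), both with overlapping ranges. Cyp2j9, next to Cyp2j6 on chromosome 4, went from 2.25 to 1.33 CPM and was not called (log2 fold change -0.76, edgeR adjusted p = 0.058), but was in 5 of 25 alternatives.

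Flavin monooxygenases oxidise nitrogen and sulfur atoms of drugs and amines. All 7 genes of the family had counts. The 3 reported were all called, 1 higher and 2 lower, where 42.9% of all genes tested were called. Fmo2, the form typical of lung, was at 92.5, 79.0, 116, 110, 73.3 and 70.0 CPM in Control libraries and 286, 241, 389, 306 and 322 CPM in knockout libraries. The lowest knockout library was above every Control library. Fmo2 rose by 1.78 in log2 (SE 0.148, edgeR adjusted p = 3.91e-07), from 16.1 to 55.0 CPM per kb, which put it above Cyp2s1 (44.0 CPM per kb) in knockout libraries.

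Its neighbour Fmo1, the form typical of liver and kidney in mice, lies within 69.2 kb with it on chromosome 1 (162829561 to 162898726, both on the minus strand). Fmo1 was at 14.6, 10.2, 14.2, 21.0, 9.23 and 8.89 CPM in Control libraries and 5.44, 4.34, 8.45, 5.27 and 6.79 CPM in knockout libraries. The groups did not overlap, although knockout library 3 (8.45 CPM) came close to Control library 6 (8.89 CPM). Fmo1 fell by 1.08 in log2 (SE 0.239, edgeR adjusted p = 0.002). Among the 7 groups of reported members whose starts lie within 500 kb, this pair was the only one called in both directions. Fmo5, on chromosome 3, fell by 0.34 (edgeR adjusted p = 0.0326) from 19.6 ± 2.79 to 15.3 ± 2.2 CPM, with overlap, a call lost in 11 of 25 alternatives, among them without Control library 4 (edgeR adjusted p = 0.0615). The 3 genes summed to 123 ± 25.8 CPM in Control and 330 ± 57.1 CPM in knockout libraries, a sum led by Fmo2.

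UDP-glucuronosyltransferases join glucuronic acid to phenols, bilirubin and steroids. Of 18 symbols, 9 had no count, 8 lay under the minimum, and Ugt1a6a, which acts on small planar phenols, is reported. It was at 31.4, 35.1, 30.4, 31.6, 20.8 and 16.8 CPM in Control libraries and 1.06, 1.71, 1.92, 1.29 and 1.6 CPM in knockout libraries. The 5 knockout values lay close together and far under the lowest Control value. Ugt1a6a fell by 4.17 in log2 (SE 0.24, edgeR adjusted p = 4.05e-09), from 27.7 ± 7.18 to 1.52 ± 0.342 CPM.

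Ugt1a genes on chromosome 1 splice different first exons to the same last exons, so their counts can be mixed. Other genes, the Ugt1a genes and Gm20528 on the opposite strand, overlap 50.3% of the exon bases of Ugt1a6a, and 52.1% of its 50-base stretches also occur in other genes, the only reported member above 50%. Under the minimum, Ugt1a6b had 43 counts in Control and 7 in knockout libraries. Ugt1a7c had 26 and 55 counts, of which 27 were in knockout library 2, and its groups overlapped. Genes of the Ugt2b group, which act on steroids, were nearly absent in Control: Ugt2b35 had 3 counts there and 54 in knockout libraries (knockout over Control 18.7, 95% counting interval 6.05 to 93.3), and Ugt2b34 had 12 and 58 counts (5.01, interval 2.66 to 10.2). Such intervals cover counting error only and not the spread between libraries.

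**Figure D2:**
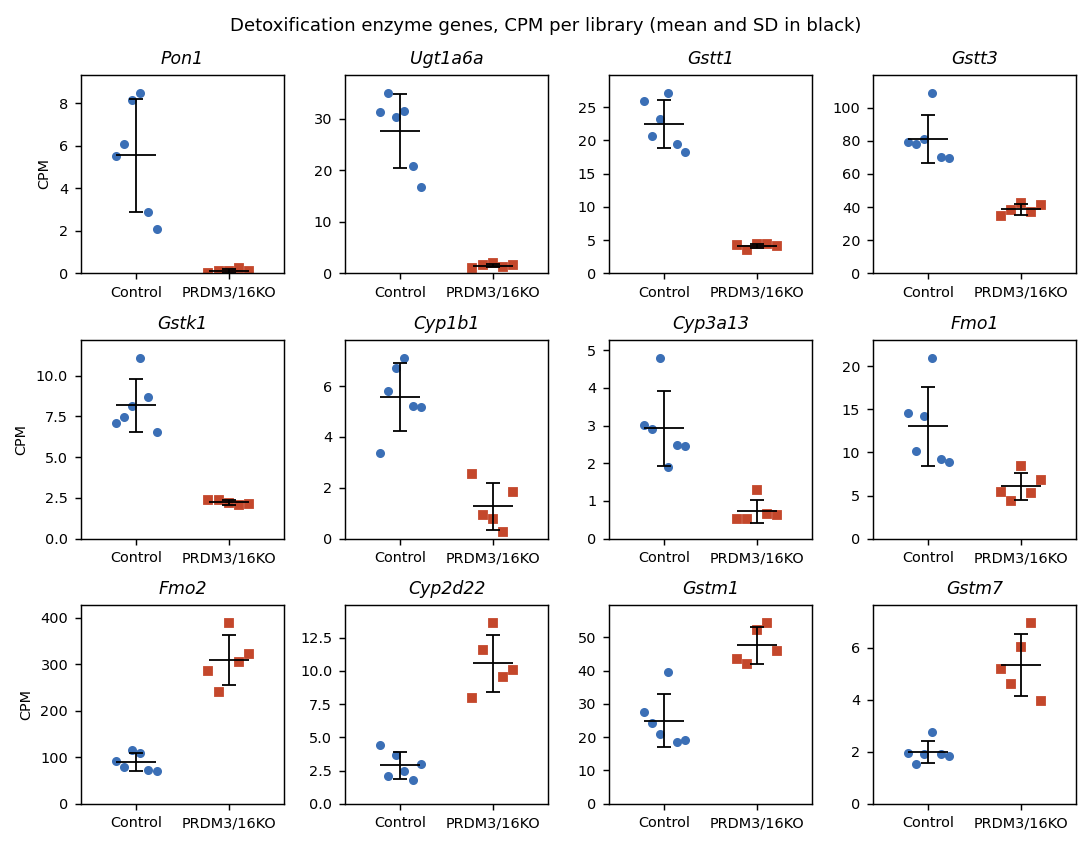
CPM of 12 enzyme genes in each library, with Control as blue circles and knockout as red squares; each y axis starts at 0, and black lines give the mean and SD. No knockout library overlaps a Control library in any panel, with 8 genes lower (from Pon1 to Fmo1) and 4 higher (Fmo2, Cyp2d22, Gstm1 and Gstm7).

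Soluble glutathione transferases join glutathione to electrophiles and are named in classes by sequence. Of 21 symbols, 13 are reported, of which 7 rose, 4 fell and 2 were not called. That is 84.6% called, against 42.9% of all genes. Groups did not overlap for 8 of them, 61.5%, against 28.5% of all genes. The classes parted: 5 of 5 reported mu genes rose and 3 of 3 reported theta genes fell, beside 21.1% of all genes called higher and 21.8% lower. Each of these 8 genes kept its direction under every scaling and every other alternative. Members of a class are neighbours, the mu genes within 118.6 kb on chromosome 3 (107926334 to 108044894) and the theta genes within 63.3 kb on chromosome 10 (75774115 to 75837424). These were the only 2 of the 7 groups of neighbours with all members called in 1 direction. Over all soluble forms the sums overlapped, at 370 ± 70.6 CPM in Control and 343 ± 20.5 CPM in knockout libraries.

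Theta enzymes, regarded as the most ancient class, act on halogenated alkanes and sulfate esters. Gstt1, known in humans for a common gene deletion, was at 25.9, 20.6, 23.3, 27.2, 19.4 and 18.3 CPM in Control libraries and 4.24, 3.55, 4.35, 4.37 and 4.19 CPM in knockout libraries. The groups were far apart, and 4 of the 5 knockout libraries lay within 4.19 to 4.37 CPM. Gstt1 fell by 2.43 in log2 (SE 0.135, edgeR adjusted p = 1.89e-09). Gstt3 was at 79.0, 77.9, 81.1, 109, 70.2 and 69.4 CPM in Control libraries and 34.6, 38.0, 42.6, 36.8 and 41.3 CPM in knockout libraries, without overlap. It fell by 1.06 (SE 0.109, edgeR adjusted p = 1.41e-06). Gstt2 fell by 0.53 (SE 0.101, edgeR adjusted p = 0.000555), from 32.3 ± 2.99 to 22.4 ± 3.33 CPM, also without overlap. The 3 genes together ran from 120 to 172 CPM in Control and from 57.4 to 73.9 CPM in knockout libraries, or 43.6 ± 6.1 and 18.2 ± 1.57 as summed CPM per kb.

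Mu enzymes act on epoxides and quinones, and Gstm1 is the main form of the mouse liver. It was at 27.5, 24.2, 21.1, 39.5, 18.6 and 19.1 CPM in Control libraries and 43.4, 41.9, 52.2, 54.3 and 46.0 CPM in knockout libraries. Control library 4 came nearest to the knockout range without reaching it. Gstm1 rose by 0.94 in log2 (SE 0.166, edgeR adjusted p = 0.000415), and 18.9% of its 50-base stretches occur in other genes. Gstm7 was at 1.95, 1.52, 1.92, 2.77, 1.93 and 1.85 CPM in Control libraries and 5.17, 4.6, 6.02, 6.95 and 3.95 CPM in knockout libraries, and rose by 1.43 (SE 0.2, edgeR adjusted p = 3.21e-05). Gstm6 was at 0.178, 0.415, 0.8, 2.08, 0.413 and 0.617 CPM in Control libraries and 3.98, 3.02, 3.97, 3.34 and 3.58 CPM in knockout libraries, and rose by 2.27 (SE 0.357, edgeR adjusted p = 8.83e-05). In both genes the groups were apart and Control library 4 was the highest of its group.

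The other mu genes changed less. Gstm2 rose by 0.53 (edgeR adjusted p = 0.000788) from 14.1 ± 2.32 to 20.3 ± 0.916 CPM without overlap, and Gstm4 by 0.38 (edgeR adjusted p = 0.0264) from 11.9 ± 2.28 to 15.4 ± 1.6 CPM with overlap. The call of Gstm4 was lost in 9 of 25 alternatives. Summed over the class, mu genes were at 53.7 ± 12.3 CPM in Control and 92.3 ± 8.4 CPM in knockout libraries, or 34.0 ± 7.91 and 58.6 ± 5.46 as summed CPM per kb. On that scale theta was above mu in Control and under it in knockout libraries. Gstm5, under the minimum, had 35 counts in Control and 69 in knockout libraries.

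**Figure D3:**
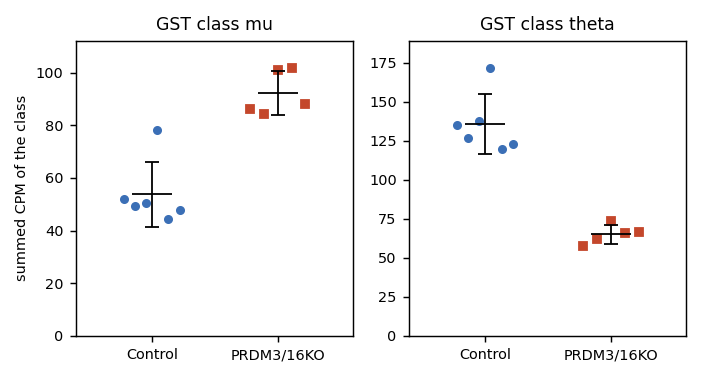
Summed CPM of the 5 reported mu genes (left) and the 3 reported theta genes (right) in each library; Control is in blue circles, knockout in red squares, and black lines give the mean and SD. Mu sums are 44.3 to 78.4 CPM in Control and 84.2 to 102 CPM in knockout libraries, and theta sums are 120 to 172 CPM and 57.4 to 73.9 CPM.

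Promoters of GST genes are known for the antioxidant response element, the site of NRF2, so windows of Gsta3, of the mu genes Gstm7 and Gstm1, chosen because they hold a match, and of Gstm2 and Gstt1 are shown. Capitals mark TGACNNNGC, the core of that element, in Gsta3 (bases -121 to -113) and Gstm7 (-129 to -121), and GCGTG in Gstm1 (-76 to -72). The windows of Gstm2 and Gstt1 held neither sequence, and nor did any window of Gstm4, Gstm6 and Gstt3 or the other window of Gstm7.
Gsta3 (chr1:21240335-21240634, plus strand): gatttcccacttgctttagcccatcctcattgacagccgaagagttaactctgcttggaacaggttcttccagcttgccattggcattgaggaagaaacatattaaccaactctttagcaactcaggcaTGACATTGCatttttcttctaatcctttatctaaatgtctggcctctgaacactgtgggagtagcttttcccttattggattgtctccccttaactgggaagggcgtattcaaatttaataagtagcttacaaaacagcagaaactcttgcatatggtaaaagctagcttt
Gstm7 (chr3:107931565-107931864, minus strand): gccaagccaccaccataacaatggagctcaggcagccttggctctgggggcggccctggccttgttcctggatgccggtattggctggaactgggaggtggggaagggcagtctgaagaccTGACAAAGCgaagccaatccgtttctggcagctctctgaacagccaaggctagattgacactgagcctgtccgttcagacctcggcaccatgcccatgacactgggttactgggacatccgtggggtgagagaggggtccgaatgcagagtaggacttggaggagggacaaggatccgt
Gstm1 (chr3:108017924-108018223, minus strand): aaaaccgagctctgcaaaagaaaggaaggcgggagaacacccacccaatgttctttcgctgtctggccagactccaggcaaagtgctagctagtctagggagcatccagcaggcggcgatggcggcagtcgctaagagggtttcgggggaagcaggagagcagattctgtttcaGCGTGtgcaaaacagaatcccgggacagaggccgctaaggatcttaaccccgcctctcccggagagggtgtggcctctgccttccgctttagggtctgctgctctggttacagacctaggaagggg
Gstm2 (chr3:107986371-107986670, minus strand): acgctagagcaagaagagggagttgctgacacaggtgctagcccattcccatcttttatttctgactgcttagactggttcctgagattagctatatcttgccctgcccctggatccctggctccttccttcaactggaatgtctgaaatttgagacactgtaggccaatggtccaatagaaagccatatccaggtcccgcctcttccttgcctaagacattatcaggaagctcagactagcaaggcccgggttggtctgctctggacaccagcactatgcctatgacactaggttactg
Gstt1 (chr10:75797682-75797981, minus strand): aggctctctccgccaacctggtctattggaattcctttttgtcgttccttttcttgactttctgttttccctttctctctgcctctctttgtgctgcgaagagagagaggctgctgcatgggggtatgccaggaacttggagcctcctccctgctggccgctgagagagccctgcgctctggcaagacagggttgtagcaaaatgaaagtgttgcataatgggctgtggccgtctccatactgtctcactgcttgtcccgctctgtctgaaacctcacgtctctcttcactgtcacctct
TGACNNNGC was found on either strand for 7 of 31 members, 22.6%, against 14.0% of 27025 genes, in each case in any window of the gene. These were 3 of 11 called higher (Cyp4f39, Gsta3 and Gstm7), 1 of 10 called lower (Cyp2j6) and 3 of 10 not called (Mgst1, Pon2 and Pon3). No match of one sequence overlapped a match of the other.

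The remaining soluble forms also differed by class. Gstk1, the kappa enzyme of mitochondria and peroxisomes, was at 7.1, 7.47, 8.16, 11.1, 8.68 and 6.54 CPM in Control libraries and 2.39, 2.36, 2.18, 2.06 and 2.1 CPM in knockout libraries. The groups did not overlap, and the knockout libraries lay in a narrow band. Gstk1, on chromosome 6 from 42245935 to 42250447, fell by 1.87 in log2 (SE 0.17, edgeR adjusted p = 3.65e-07). Gstz1, an isomerase of tyrosine breakdown and the most abundant soluble form by CPM, was at 122, 114, 110, 153, 98.6 and 84.3 CPM in Control libraries and 104, 95.4, 104, 102 and 100 CPM in knockout libraries. It was not called (log2 fold change -0.16, SE 0.115, edgeR adjusted p = 0.274), and its knockout values lay inside the Control range.

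Gsta3, an alpha form that detoxifies aflatoxin epoxide in mice, rose by 0.91 (SE 0.229, edgeR adjusted p = 0.00449) from 3.86 ± 1.39 to 7.19 ± 1.1 CPM. Its ranges overlapped only through Control library 4 (5.72 CPM) and knockout library 2 (5.39 CPM). Gsta4, the alpha form for products of lipid peroxidation, was at 23.3 ± 5.58 CPM in Control and 23.8 ± 5.79 CPM in knockout libraries (log2 fold change 0.03, edgeR adjusted p = 0.901). Gsto1, an omega enzyme that reduces dehydroascorbate, rose by 0.70 (SE 0.256, edgeR adjusted p = 0.0425) from 31.8 ± 13.8 to 51.4 ± 10.2 CPM with overlap, a call lost in 13 of 25 alternatives. Pi genes, which are prominent in many epithelia, lay under the minimum, with 24 counts in Control and 28 in knockout libraries for Gstp1, and 5 and 15 for Gstp2. Of their 50-base stretches, 33.7% and 54.3% occur in other genes, so reads that match several genes could be missing from these counts.

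Microsomal glutathione transferases sit in membranes and act on lipid peroxides. Mgst1 was the highest of all reported members per kilobase, at 90.3 CPM per kb in Control and 92.3 CPM per kb in knockout libraries. It was at 153, 187, 187, 246, 177 and 141 CPM in Control libraries and 179, 170, 197, 195 and 187 CPM in knockout libraries, within the Control range. Its log2 fold change was 0.03 (SE 0.114, edgeR adjusted p = 0.844). Mgst3, which also makes leukotriene C, went from 5.42 ± 1.06 to 4.06 ± 0.66 CPM and was not called (-0.41, edgeR adjusted p = 0.0651).

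Paraoxonases hydrolyse lactones and some organophosphates, and the 3 genes lie within 130.4 kb on chromosome 6 (5168090 to 5298455). Pon1, known as a plasma enzyme carried on high-density lipoprotein, had 31, 44, 51, 49, 21 and 17 counts in Control libraries and 0, 1, 1, 2 and 1 counts in knockout libraries. The lowest Control library was far above the highest knockout library. That is 5.54 ± 2.63 CPM against 0.128 ± 0.091 CPM, and 213 against 5 counts in all, a depth-scaled Control over knockout ratio of 41.1 (95% counting interval 17.3 to 128). Pon1 fell by 5.22 in log2 (SE 0.589, edgeR adjusted p = 3.43e-06), the largest change of the 36 reported members.

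Its neighbours did not follow. Pon3, also a lactonase, was at 126, 143, 134, 103, 90.2 and 69.6 CPM in Control libraries and 118, 97.5, 113, 106 and 99.2 CPM in knockout libraries, all inside the Control range. Its log2 fold change was -0.05 (SE 0.155, edgeR adjusted p = 0.813). Pon2, an intracellular form, was at 71.3 ± 14.0 CPM in Control and 73.5 ± 4.88 CPM in knockout libraries (0.05, SE 0.116, edgeR adjusted p = 0.769). Of 10 markers of hepatocytes, in which Pon1 is prominent, 2 were tested: Trf fell from 225 to 61.1 CPM and Alb rose from 0.559 to 3.78 CPM, and Serpina1a was at 0 in all libraries. Their sum, most of it Trf, was 122 to 327 CPM in Control and 50.1 to 80.2 CPM in knockout libraries, and its part in the fall of Pon1 was not tested.

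**Figure D4:**
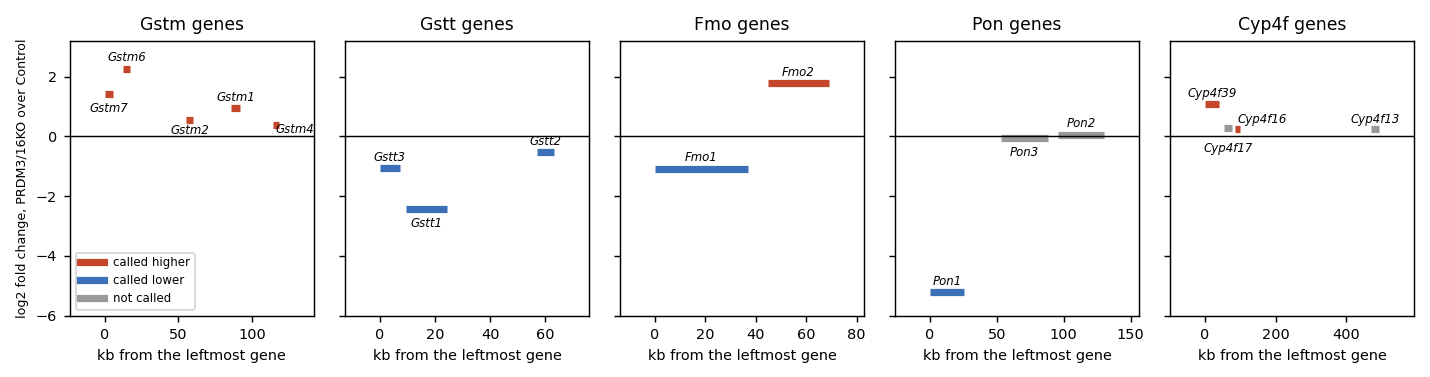
Log2 fold change (y axis) of neighbouring reported members against distance in kb from the leftmost gene (x axis) for 5 groups of neighbours; bar lengths give gene lengths, with red called higher, blue called lower and grey not called. All 5 Gstm genes are above 0 and all 3 Gstt genes under it, Fmo1 and Fmo2 lie on opposite sides, and Pon1 lies at -5.22 while Pon2 and Pon3 lie near 0.

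Among members under the minimum, several had counts in mainly 1 group. Cyp2c44 had 57 counts in Control and 1 in knockout libraries, a depth-scaled Control over knockout ratio of 55.0 (95% counting interval 9.48 to 2210). Fmo4 had 44 and 13 counts, a Control over knockout ratio of 3.27 (1.73 to 6.61). Cyp2w1, a P450 known from fetal tissue and tumours, went the other way with 11 and 72 counts, a knockout over Control ratio of 6.78 (3.57 to 14.2). Cyp2a5, the mouse coumarin hydroxylase, had 5 and 45 counts, a ratio of 9.33 (3.71 to 30.1), and 37.0% of its 50-base stretches occur in other genes. Cyp2w1 passed the filter of the fit and was called higher (log2 fold change 2.68, edgeR adjusted p = 8.56e-05), while Cyp2c44, Fmo4 and Cyp2a5 were not tested. The members under the minimum that are named here and above were picked after their values were seen.

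Regulators and partners of the enzymes came from lists of textbook genes. Of 11 sensors, 9 were tested, of which 2 rose and 3 fell (median log2 fold change -0.10). Among all genes tested, 21.1% were called higher and 21.8% lower. Nfe2l2, which encodes NRF2, fell from 950 ± 129 to 413 ± 16.8 CPM (log2 fold change -1.20, SE 0.0926, edgeR adjusted p = 6.51e-08), with 781 to 1129 CPM in Control and 385 to 429 CPM in knockout libraries. Bach1, a repressor at NRF2 sites, fell by 0.56 (edgeR adjusted p = 0.00096). Ahr rose from 153 ± 18.9 to 242 ± 15.6 CPM (0.66, SE 0.0832, edgeR adjusted p = 1.18e-05), again without overlap, and Rxra, the partner of CAR and the pregnane X receptor PXR, rose by 0.31 (edgeR adjusted p = 0.000285). Arnt, the partner of AHR (-0.11, edgeR adjusted p = 0.198), and Mafg, a partner of NRF2 (0.17, edgeR adjusted p = 0.134), were not called. The receptors PXR (Nr1i2, 37 counts in Control and 55 in knockout libraries) and CAR (Nr1i3, 3 and 5 counts) were too low to test.

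Microsomal P450s need electrons and heme. Of 8 genes of that list, 4 fell and none rose (median -0.39), where 42.9% of all genes were called and 21.8% were called lower. Por, the reductase that serves all microsomal P450s, fell from 125 ± 24.6 to 68.1 ± 2.99 CPM (log2 fold change -0.87, SE 0.113, edgeR adjusted p = 1.93e-05), with no overlap. Cyb5b, which is counted in this list, is a cytochrome b5 of the mitochondrial outer membrane and not of microsomes. It fell from 408 ± 21.0 to 223 ± 8.5 CPM (-0.87, SE 0.0595, edgeR adjusted p = 1.86e-08). Cyb5r3, a reductase of cytochrome b5, fell by 0.52 (edgeR adjusted p = 9.39e-05), and Alas1, the first enzyme of heme synthesis, by 0.74 (edgeR adjusted p = 0.000119). Pgrmc1 (0.19, edgeR adjusted p = 0.106) and Cyb5a (0.11, edgeR adjusted p = 0.316) were not called.

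Among targets of the sensors outside the families, decreases outnumbered increases. Of 13 NRF2-responsive genes, 2 rose and 7 fell (median -0.35), beside 21.1% of all genes called higher and 21.8% called lower. Gclc, which makes the first bond of glutathione, fell by 0.78 (edgeR adjusted p = 0.000396) from 170 ± 29.1 to 99.0 ± 18.0 CPM, and Txnrd1, thioredoxin reductase, by 0.33 (edgeR adjusted p = 0.00017). Against these, the peroxidase Gpx2 rose by 1.22 (edgeR adjusted p = 6.44e-05) and Srxn1, sulfiredoxin, by 0.76 (edgeR adjusted p = 0.000144). Prdx1 (-0.48, edgeR adjusted p = 0.384) and Hmox1 (-0.33, edgeR adjusted p = 0.12) were not called. Of 3 AHR-responsive genes tested, Tiparp fell by 0.50 (edgeR adjusted p = 0.000643) and the quinone reductase Nqo1 by 1.29 (edgeR adjusted p = 0.00173), which is also an NRF2 target. The AHR repressor Ahrr was at 0.71 and not called (edgeR adjusted p = 0.0574).

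Genes of cosubstrate supply changed in both directions. Of 14 glutathione genes tested, 3 rose and 10 fell (median -0.37), beside 21.1% of all genes called higher and 21.8% called lower. Ggt5, which cleaves glutathione and leukotriene C, fell by 1.84 (edgeR adjusted p = 1.91e-07) from 24.0 to 6.66 CPM, and the peroxidase Gpx1 by 0.55 (edgeR adjusted p = 0.000382), while the secreted peroxidase Gpx3 rose by 1.48 (edgeR adjusted p = 4.32e-05) from 29.6 to 81.6 CPM. Chac1, which degrades glutathione, was not called (-0.09, edgeR adjusted p = 0.798). For glucuronic acid, Ugdh (-0.50, edgeR adjusted p = 0.00185) and Ugp2 (-0.34, edgeR adjusted p = 0.00682) fell and the transporter Slc35d2 rose by 0.50 (edgeR adjusted p = 0.0164), with Slc35d1 at 0.23 (edgeR adjusted p = 0.0878).

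**Figure D5:**
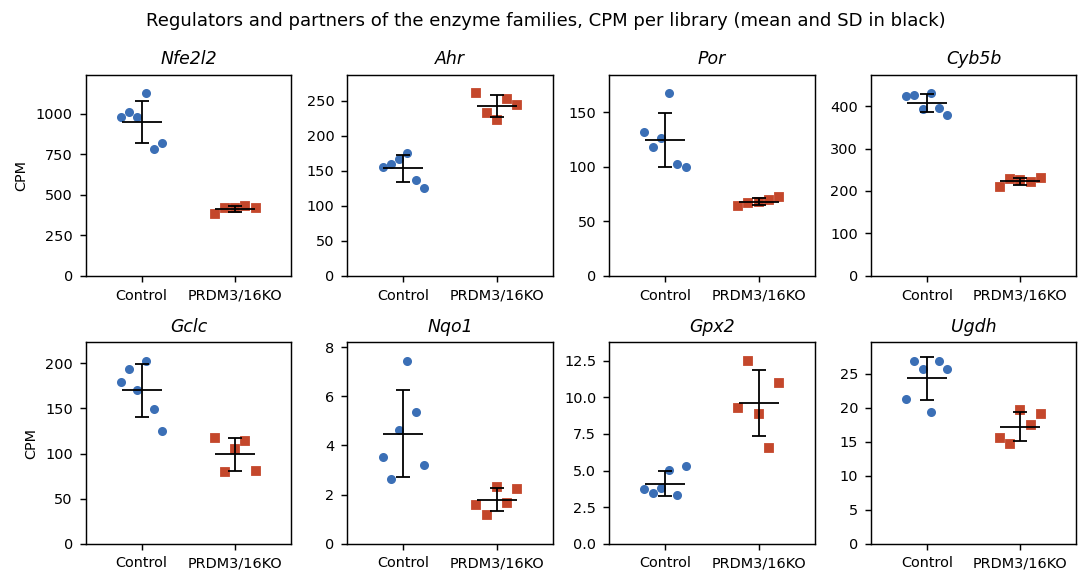
CPM per library of 8 regulators and partners of the enzymes, with Control as blue circles, knockout as red squares, and the mean and SD in black; each y axis starts at 0. Nfe2l2, Por, Cyb5b, Gclc and Nqo1 are lower in every knockout library than in any Control library, Ahr and Gpx2 are higher in every knockout library, and Ugdh overlaps.

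Among other detoxification enzymes, decreases again outnumbered increases in one list. Of 16 oxidation, reduction and hydrolysis genes tested, 1 rose and 10 fell (median -0.41), beside 21.1% of all genes called higher and 21.8% called lower. In this list, 2 genes, Aldh1a1 and Cbr2, are also airway secretory markers. The monoamine oxidase Maob fell by 1.08 (edgeR adjusted p = 1.47e-08), the carbonyl reductase Cbr3 by 1.72 (edgeR adjusted p = 6.01e-06) and the carboxylesterase Ces1d by 0.80 (edgeR adjusted p = 3.64e-05). The aldo-keto reductase Akr1b8 rose by 1.76 (edgeR adjusted p = 1.47e-05) from 1.94 to 6.47 CPM. Aldh1a7 (0.12, edgeR adjusted p = 0.266) and Akr1c14 (-0.43, edgeR adjusted p = 0.0654) were not called. Akr1c14 was called lower by DESeq2 (-0.44, DESeq2 adjusted p = 0.0331) and without Control library 6 (-0.56, edgeR adjusted p = 0.00141), among 5 of 25 alternatives.

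Of 9 other conjugation genes tested, 2 rose and 4 fell (median 0.19). The phenol sulfotransferase Sult1a1 fell by 2.24 (edgeR adjusted p = 1.2e-06) from 12.0 to 2.52 CPM and the histamine methyltransferase Hnmt by 2.96 (edgeR adjusted p = 1.94e-05), while Papss1, which makes the sulfate donor, rose by 0.81 (edgeR adjusted p = 1.19e-08) from 75.0 to 131 CPM. Nat2 (0.19, edgeR adjusted p = 0.268) and Tpmt (0.25, edgeR adjusted p = 0.324) were not called. Of 7 transporters tested, 1 rose and 3 fell (median -0.23). The prostaglandin carrier Slco2a1 rose by 1.26 (edgeR adjusted p = 5.99e-08), and Abcc3, an exporter of glucuronides, fell by 1.03 (edgeR adjusted p = 1.67e-05). Abcc4 fell by 0.60 (edgeR adjusted p = 0.0111) and Slco4a1 by 0.93 (edgeR adjusted p = 0.04), the latter a call lost in 12 of 20 alternatives, with Abcc5 (0.14, edgeR adjusted p = 0.0922) and Slc22a5 (-0.23, edgeR adjusted p = 0.0528) not called. These lists share 7 genes among themselves, and their counts are descriptions beside the 42.9% of all genes called.

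Libraries of the same group differed in a shared way. Control library 4 was the highest Control library for 24 of the 36 members and Control library 6 the lowest for 18, while their summed proliferation markers were 198 and 821 CPM, the lowest and the highest of all libraries. Among knockout libraries, library 3, which had the highest mesenchymal sum (1524 CPM), was highest for 15 members, and library 2 was lowest for 16. Knockout library 3 also had the highest airway secretory (2139 CPM) and alveolar type 2 (3872 CPM) sums of its group. Without Control library 4, 14 members were higher and 12 lower. With the mesenchymal marker level as a covariate, 9 were higher and 10 lower.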

How the data were processed

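The authors deposited raw counts per gene symbol, whole numbers, for 6 Control and 5 PRDM3/16KO libraries of lung epithelial RNA. Tools named in the submitters' processing notes, with no roles, are HTSeq 2.0, Bowtie2 2.4.2, DESeq2, Picard 2.18.22, Trim Galore 0.4.2, SAMtools 1.10.0 and FastQC, on build mm10. Annotation, strand setting and the treatment of duplicate and multiply matching reads: not given in the sources used here. Counts of near-identical or overlapping genes, antisense ones included, are therefore uncertain.

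In R 4.3.3, edgeR 4.0.16 was run on the whole table (filterByExpr, TMM scaling, robust quasi-likelihood F-test, two-sided, Benjamini-Hochberg over 13916 genes, threshold 0.05). Standard errors are log2 fold changes, refitted without edgeR's small added count, over the root of F. The printed log2 fold changes come from the fit that keeps this added count. Libraries held 6065906 to 7869787 counts before scaling. CPM use TMM-scaled library sizes, and CPM per kb divides them by exon length. Ratios of summed counts use those library sizes and exact binomial 95% intervals, for counting error only. Of 136 member symbols, 134 matched GENCODE M21 (not Cyp2c44 and Cyp2d13), which gave coordinates, exon overlaps and the share of 50-base stretches found in other genes. Steps were tested on simulated data in which few genes changed, in directions drawn at random. Scaling under changes as broad as those here was therefore not checked.

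Members, lists and tests were chosen with earlier results of these data known. Values in every library are given for called members of each family with a 2-fold change or more, up to 4 in each direction, and for the most abundant member of each family. From each list, the text names the 4 called genes with the smallest adjusted p and the 2 highest others, or fewer where there are fewer. One gene that this rule takes is not reported here. Alternatives were DESeq2 1.42.0, its size factors, limma-voom (limma 3.58.1), library size only, other filters, thresholds and count minimums, fits without robust moderation, a block for replicate numbers, Y-linked or mesenchymal covariates, and libraries left out.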

Additional observations from a re-analysis of the deposited data

Results flagged for a closer look

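For each of the 36 members, the highest and lowest library of each group were set against the others by Dixon's 95% critical value, which chance passes in about 1 in 20 groups. It was passed in 11 of 72 groups. The 7 in Control were all library 4 and high: Cyp2s1 at 425 CPM (others 199 to 257), Gstt3 at 109 CPM (69.4 to 81.1), Gstm2 at 18.7 CPM (12.4 to 13.9), Cyp4b1 at 16.3 CPM (3.21 to 6.75), Cyp2b10 at 7.11 CPM (1.24 to 2.89), Gstm7 at 2.77 CPM (1.52 to 1.95) and Gstm6 at 2.08 CPM (0.178 to 0.8). In knockout library 3, Gstm4 was high at 18.2 CPM (others 14.3 to 15.3), Cyp2b10 at 7.17 CPM (3.6 to 4.56) and Cyp3a13 at 1.28 CPM (0.526 to 0.643). In knockout library 2, Gstt1 was low at 3.55 CPM (4.19 to 4.37). Control library 4 had the highest sums of airway secretory and multiciliated markers. Its alveolar type 2 (13171 CPM), leukocyte (1212 CPM), endothelial (105 CPM) and hepatocyte (327 CPM) sums were also the highest, its mesenchymal sum (607 CPM) not. Knockout library 3 had the highest mesenchymal sum. Among knockout libraries it was also highest in airway secretory (2139 CPM), multiciliated (3438 CPM), alveolar type 2 (3872 CPM) and leukocyte (765 CPM) sums, but not in alveolar type 1 ones (11435 CPM). The part of any of these was not tested.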

How the results depend on the processing

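Of the 24 called members, 10 kept call and direction under all 25 alternatives run for each gene, 14 lost the call under at least 1, and 0 changed direction. The calls most often lost were those of Cyp4f16 (17 of 25), Gsto1 (13), Cyp2j6 (11), Fmo5 (11) and Gstm4 (9). Of the 12 members not called, 8 were called under at least 1 alternative and 5 changed sign. Leaving out 1 library at a time gave 9 to 14 members higher, 10 to 13 lower, and a median of -0.0319 to 0.138. By edgeR with 1 library left out, calls were lost for Cyp4f16 in 9 fits (adjusted p 0.0537 to 0.101), Gsto1 in 6 (0.0559 to 0.107), Cyp2j6 in 5 (0.0553 to 0.0893), Fmo5 in 5 (0.0546 to 0.0947), Gstm4 in 4 (0.0553 to 0.0791), Slco4a1 in 4 (0.0772 to 0.096) and Slc35d2 without knockout library 5 (0.0534). Calls were gained without Control library 4 for Cyp2b10 (0.000609), Cyp4b1 (0.00531), Cyp2j9 (0.0474), Aldh1a7 (0.0164) and Pgrmc1 (0.0255), and without Control library 6 for Gstz1 (0.0494), Arnt (0.0469), Ahrr (0.0188), Akr1c14 (0.00141) and Slc22a5 (0.0337). Other calls gained included Mgst3 without knockout library 5 (0.0474), Hmox1 (0.0424) and Cyp4f17 (0.0348) without Control library 5, and Abcc5 without Control library 1 (0.0337). The replicate block gave 10 higher, 13 lower and a median of -0.0221. Numbers pair no samples by the labels, and deviations of same-numbered libraries correlated at -0.0592, 0.0942, -0.0543, 0.01 and 0.271.

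The members' median was 0.141 with library size only, 0.151 with the mesenchymal covariate and -0.0745 without Control libraries 5 and 6. Library size only also moved the median of all genes from 0.0023 to 0.11 and the share of calls that were higher from 49.2% to 65.6%, and gave 14 members higher and 10 lower. Y-linked transcripts were high in 4 of 6 Control and 1 of 5 knockout libraries, so the groups were not balanced in them. Libraries low in Y-linked transcripts alone gave 12 members higher, 8 lower and a median of 0.141. Those high in them (4 Control and 1 knockout library, whose spread is assumed to be that of Control) gave -0.0372, with 4 higher and 7 lower, and fewer libraries were fitted.

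The sign turned only for genes that were not called. Gsta4 was at -0.015 with the Y-linked covariate, -0.0047 with the mesenchymal one, -0.055 to 0.16 over the fits with 1 library left out and -0.37 in high-Y libraries. Gstz1 was at 0.022 and Arnt at 0.0063 in low-Y libraries. Mgst1 was at -0.018 and Pon2 at -0.026 with the replicate block, and at -0.059 and -0.09 without Control libraries 5 and 6. With 1 library left out, Mgst1 was at -0.031 to 0.14, Pon2 at -0.032 to 0.14 and Pon3 at -0.16 to 0.034. Pon3 was at 0.063 with library size only, 0.19 with the mesenchymal covariate and 0.0042 in low-Y libraries. Prdx1 was at 0.40 with the mesenchymal covariate and 0.21 in high-Y libraries, and Nat2 at -0.031 and Tpmt at -0.062 there. Chac1 was at 0.025 with library size only, 0.089 with the Y-linked covariate, 0.026 with limma-voom, 0.37 in low-Y libraries and -0.22 to 0.075 with 1 library left out. The cause was not tested. Depth limits members with few counts, such as Gstm6 and Cyp3a13, and those under the minimum, whose ratios carry counting intervals only.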
